A study of Mus musculus with 6 samples.

Results

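Krt7, Krt8, Krt18 and Krt19 encode the main keratins of simple epithelia, the single-layered linings of glands and ducts. These 4 genes were taken by symbol from 25273 mouse genes to which the deposited transcripts could be matched, and all 4 passed the filter that left 10255 genes for testing. Their levels were compared in basal cells from the proximal ducts of the mouse prostate, which lie nearest the urethra, and from its distal ducts, which lie toward the gland tips. RNA sequencing was carried out on 3 proximal and 3 distal libraries from C57BL/6 mice aged 8 to 12 weeks, with no treatment or engineered allele named for either group. The cells were sorted by fluorescence after tissue dissociation. The sources used here do not give the gates that define a basal cell, or whether each library stands for a different animal. The p-values thus rest on the variation among these 6 libraries alone, and that variation may be technical.

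Keratins form intermediate filaments as obligate pairs of a type I and a type II chain. Krt7 and Krt8 are type II genes, and Krt18 and Krt19 are type I genes. In the prostate Krt8 and Krt18 are the classical markers of the luminal cells that line the lumen, whereas Krt5 and Krt14 mark the basal cells beneath them. Krt7 and Krt19 are further simple keratins, often found in ducts, in urothelium and in cells that combine basal and luminal features. Krt19 is unusual among keratins in having almost no tail domain.

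The simple keratins divided into 2 pairs. Krt7 and Krt19 were 5.48-fold and 4.08-fold higher in proximal basal cells by their means, whereas neither Krt8 nor Krt18 passed the test, although both were abundant in all 6 libraries. The pair that rose thus held 1 type II gene and 1 type I gene, as did the pair that did not pass.

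Each member was represented by 1 transcript, so the gene level equals that transcript's level. On mm10, the Krt7 transcript spans chromosome 15 from 101412403 to 101427806 on the plus strand. Krt8 spans 101996711 to 102004342 on the minus strand of the same chromosome, and Krt18 spans 102028216 to 102032026 on the plus strand. Krt18 is thereby the neighbour of its usual partner Krt8, at the end of the type II keratin cluster. Krt19 lies in the type I cluster, on chromosome 11 from 100140811 to 100145919 on the minus strand. The deposited spans of Krt7, Krt8 and Krt18 had the same ends as the RefSeq genes, and that of Krt19 differed by 1 base at its lower coordinate and by 7 bases at its upper one.

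RefSeq promoter sequences (GRCm38.p6, the assembly of mm10) were matched for 3 of the 4 members. They are shown because the level of Krt7 differed between the duct regions while those of Krt8 and Krt18, on the same chromosome, did not pass the test. Each runs 5′ to 3′ along the gene over the 250 bases before the RefSeq start, at chr15:101412153-101412402 for Krt7 (plus strand), chr15:102004343-102004592 for Krt8 (minus strand) and chr15:102027966-102028215 for Krt18 (plus strand). Capitals mark GC boxes, written GGGCGG, and AP-2 type sites, written GCCNNNGGC, on either strand, with touching matches joined.
Krt7: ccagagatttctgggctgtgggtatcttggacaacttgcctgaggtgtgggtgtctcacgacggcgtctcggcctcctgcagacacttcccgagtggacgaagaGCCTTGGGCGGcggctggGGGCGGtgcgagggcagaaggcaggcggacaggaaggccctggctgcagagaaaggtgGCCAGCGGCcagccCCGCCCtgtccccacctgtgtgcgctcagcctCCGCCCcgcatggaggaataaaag
Krt8: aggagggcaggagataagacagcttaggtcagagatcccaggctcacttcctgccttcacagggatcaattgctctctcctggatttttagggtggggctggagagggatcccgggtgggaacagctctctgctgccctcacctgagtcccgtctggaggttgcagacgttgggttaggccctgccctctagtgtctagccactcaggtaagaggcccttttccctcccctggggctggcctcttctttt
Krt18: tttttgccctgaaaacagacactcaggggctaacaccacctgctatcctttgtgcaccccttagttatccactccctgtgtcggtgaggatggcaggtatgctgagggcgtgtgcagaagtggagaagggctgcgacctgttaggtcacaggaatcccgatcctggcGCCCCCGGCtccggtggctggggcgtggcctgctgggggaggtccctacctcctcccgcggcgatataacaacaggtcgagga

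The Krt7 promoter held 4 GC boxes, at 141, 128, 56 and 24 bases before the start, counted at the first base of each. At least 1 GC box was found in 32.7% of the 32817 promoters of this length, and at least 4 in 4.09%. Krt7 also held 2 AP-2 type sites, the upstream one overlapping a GC box, and Krt18 held 1, against 13.7% of all promoters with at least 1. The Krt8 window held no match to either motif. TATAAA, which 12.4% of promoters hold, was in none of the 3 windows. Also absent from all 3 were CCAAT (33.8% of promoters), the AP-1 site TGANTCA (6.75%) and the grainyhead-like core AACNNGTT (3.64%). CACCC, an element bound by KLF factors, occurred once in Krt7 and in Krt18 and at 2 places in Krt8, and is present in 52.0% of promoters. The GC content of the window was 66% in Krt7, 58% in Krt8 and 60.4% in Krt18, against a median of 52.4% over all promoters. These matches describe the letters of the windows only.

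Expression is given as FPKM, a fragment count scaled to transcript length and to library depth. Because of the scaling to length, levels of different genes can be set side by side, though only approximately. The scaling does not remove other differences between genes, such as reads shared with near-identical genes. Library depth, estimated from the widths of the deposited intervals, was 20900000 to 26800000 fragments. The deposited interval of a member reached at most 4.45% to either side of its value (Krt7 in distal replicate 1) and as little as 0.949% (Krt18 in the same library). The spread between libraries of a group was larger, with a coefficient of variation as high as 24.8% for Krt18 in distal cells. On principal components the leading axis separated the duct regions (47.2% of variance), and the next axis (25.4%) separated replicate 1 of each region from the remaining libraries. Members' values without those libraries are given beside the results they change.

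Krt7, the type II keratin of many ductal epithelia, was at 63.3, 53.9 and 77.1 FPKM in distal replicates 1, 2 and 3. It was at 342, 333 and 391 FPKM in the proximal replicates. Every proximal library stood more than 4-fold above the highest distal one, so the groups did not overlap. The values gave a proximal mean of 355 ± 31.0 FPKM and a distal mean of 64.8 ± 11.7 FPKM (SD, n = 3), a proximal minus distal difference of 2.45 in log2(FPKM + 1) (limma, SE 0.15, adjusted p = 0.000143). The 95% interval of the fold ran from 4.32 to 6.89. By rank, Krt7 moved from between places 812 and 1148 among the tested genes in distal libraries to between places 133 and 170 in proximal ones.

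Krt19, the short type I keratin, was at 196, 170 and 212 FPKM in the distal replicates. It was at 759, 787 and 815 FPKM in the proximal replicates. The proximal values lay close together, and again no proximal library came near the distal range. The means were 787 ± 28.4 FPKM in proximal and 193 ± 21.6 FPKM in distal libraries (SD, n = 3), a difference of 2.03 on the log2 scale (limma, SE 0.12, adjusted p = 0.000143), and a 95% interval of the fold from 3.37 to 4.94. Krt19 stood at places 282 to 348 in distal and 43 to 53 in proximal libraries.

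Krt8, the type II keratin of luminal cells, was at 643, 474 and 522 FPKM in the distal replicates. It was at 615, 519 and 661 FPKM in the proximal replicates. The groups overlapped, with distal replicate 1 above 2 of the 3 proximal libraries. The values gave a proximal mean of 598 ± 72.9 FPKM and a distal mean of 546 ± 86.8 FPKM (SD, n = 3), a difference of 0.14 on the log2 scale (limma, SE 0.16, adjusted p = 0.643). The 95% interval ran from 0.856-fold to 1.41-fold, which does not reach the lower bound of either Krt7 or Krt19.

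Krt18, the type I partner of Krt8, was the most abundant member. It was at 1628, 1076 and 1093 FPKM in the distal replicates and at 1373, 1248 and 1218 FPKM in the proximal replicates. The groups overlapped because distal replicate 1 was the highest of all 6 libraries, while the other distal libraries lay below all proximal ones. The values gave a proximal mean of 1279 ± 82.2 FPKM and a distal mean of 1266 ± 314 FPKM (SD, n = 3), a difference of 0.04 on the log2 scale (limma, SE 0.18, adjusted p = 0.922), with a 95% interval from 0.767-fold to 1.38-fold. Without both libraries numbered 1 the log2 fold change was 0.18 for Krt18 and 0.23 for Krt8 (limma, adjusted p = 0.187 and 0.260). The sign for Krt18 turned on leaving out distal replicate 2, distal replicate 3 or proximal replicate 1, to -0.06, -0.05 and -0.01. Krt18 held places 20 to 38 among all tested genes in the 6 libraries, and Krt8 places 60 to 105.

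**Figure D1:**
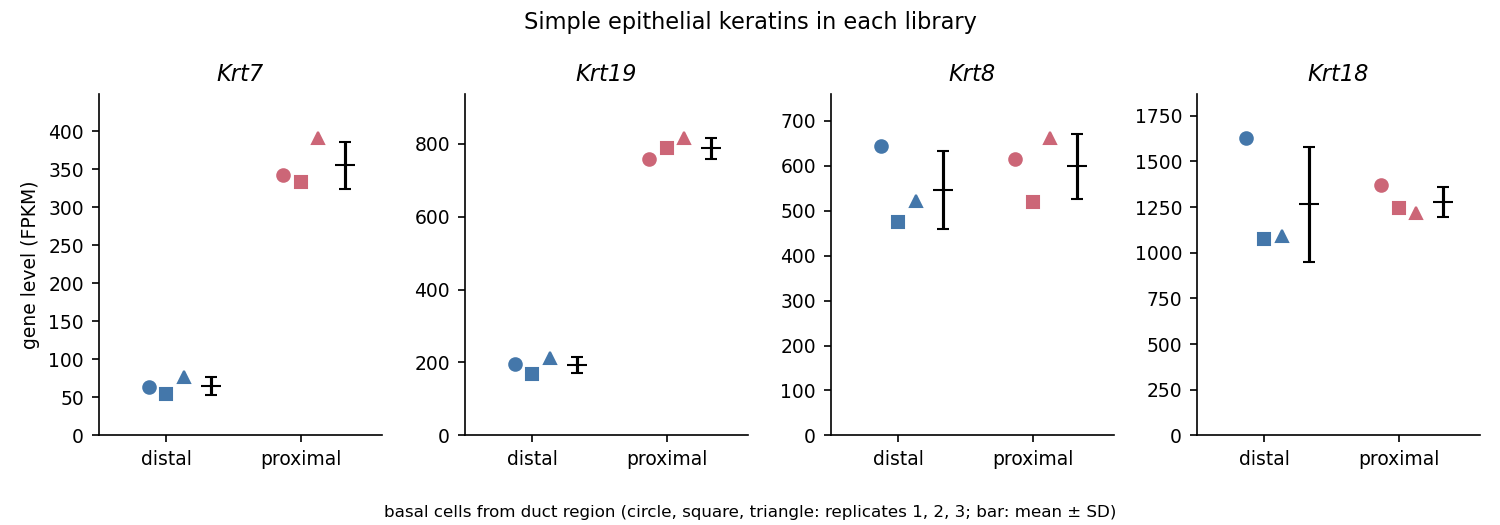
Level of each simple keratin (FPKM, vertical axes from 0, a scale for each gene) in the 3 distal and 3 proximal libraries, with symbols for replicates 1 to 3 and bars for the mean ± SD. Krt7 and Krt19 separate the regions, with proximal values of 333 to 391 and 759 to 815 FPKM, whereas the values of Krt8 and of Krt18 overlap.

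Of the 4 members, 2 were called higher in proximal cells and none was called lower. Of the 20 tested keratins, 8 were called higher and 1 lower. The members were chosen with earlier results of these data known, so their count is a description. Over all 10255 tested genes, 4.52% were called higher and 2.50% lower, 7.02% in all (limma, adjusted p under 0.05). The groups did not overlap for the same 2 members, against 28.8% of all tested genes in either direction and 15.8% with the proximal group above. The median log2 fold change over all tested genes was -0.01. The number of genes called higher fell as low as 202 without proximal replicate 2, and the number called lower as low as 46 without distal replicate 2. Both calls among the members held in each leave-one-out fit, with Krt7 between 2.33 and 2.58 and Krt19 between 1.94 and 2.10 on the log2 scale.

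The order of the levels differed between the regions. In each distal library Krt18 stood highest, followed by Krt8, Krt19 and Krt7. In each proximal library Krt19 stood above Krt8, so that the order was Krt18, Krt19, Krt8 and Krt7. No neighbours in either order overlapped within a region. The ratio of Krt19 to Krt8 was 0.306, 0.358 and 0.406 in the distal replicates and 1.23, 1.52 and 1.23 in the proximal replicates. Thus the more abundant of these simple keratins was Krt8 in every distal and Krt19 in every proximal library.

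Within a library, ratios between members do not depend on the scaling of that library. The ratio of Krt7 to Krt8, the 2 type II members, was 0.0985, 0.114 and 0.148 in the distal replicates and 0.555, 0.643 and 0.591 in the proximal replicates. The means were 0.120 ± 0.0252 and 0.596 ± 0.0441 (SD, n = 3), so that Krt7 came much nearer to the level of Krt8 in proximal cells. The ratio of Krt19 to Krt18, the 2 type I members, was 0.121, 0.158 and 0.194 in the distal replicates and 0.553, 0.631 and 0.670 in the proximal replicates. Distal replicate 1 had the lowest value of both ratios, and it was the distal library with the highest Krt8 and Krt18.

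The ratio of Krt8 to Krt18, the usual partners, was 0.395, 0.441 and 0.478 in the distal replicates and 0.448, 0.416 and 0.543 in the proximal replicates. These values overlapped, with means of 0.438 ± 0.0416 and 0.469 ± 0.0662 (SD, n = 3). The ratio of Krt7 to Krt19 was higher in proximal cells, at 0.451 ± 0.0279 against 0.334 ± 0.0251 (SD, n = 3), and did not overlap. As a single number, the mean log2(FPKM + 1) of Krt7 and Krt19 minus that of Krt8 and Krt18 was -0.72 ± 0.11 in proximal and -2.87 ± 0.32 in distal cells (SD, n = 3), a difference of 2.15. The members were chosen with earlier results of these data known, so these ratios are given as a description with no test.

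**Figure D2:**
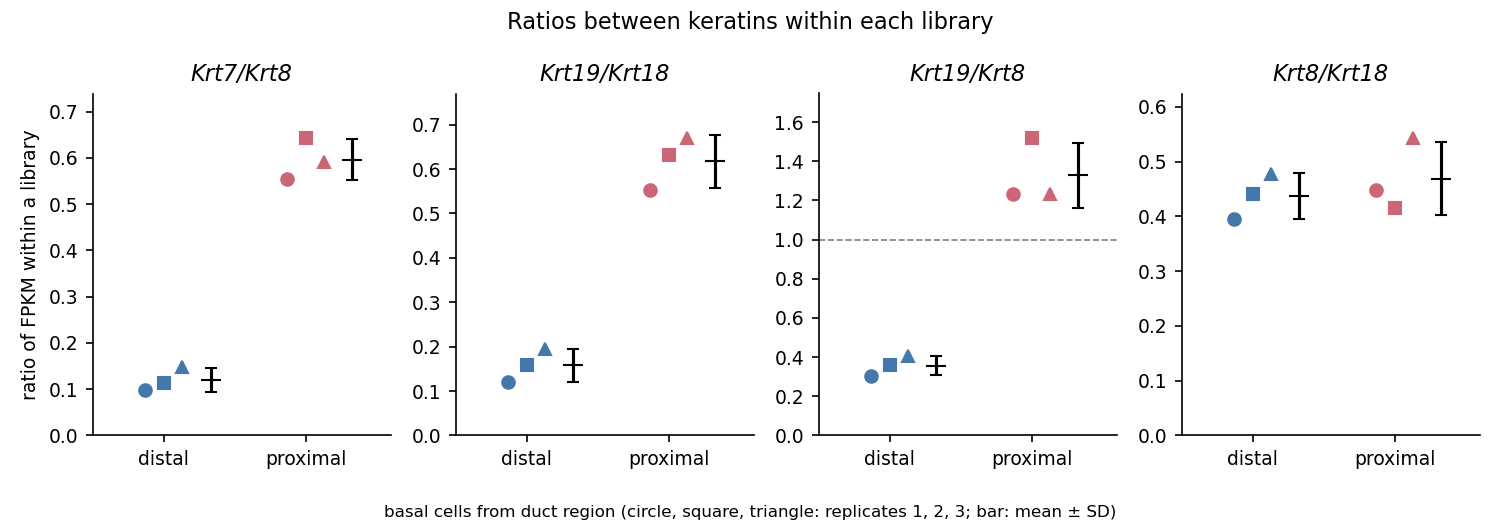
Ratios of FPKM between members within each library (vertical axes from 0), with symbols for replicates 1 to 3 and bars for the mean ± SD. Krt7/Krt8 and Krt19/Krt18 are higher in every proximal than in any distal library, Krt19/Krt8 crosses 1 (dashed line), and Krt8/Krt18 overlaps between the regions.

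Among all keratins the simple members held a larger part in proximal cells. The summed level of 52 keratin genes was 9057 to 11661 FPKM in distal and 11407 to 11899 FPKM in proximal libraries. The 4 members together made up 19.6% to 21.7% of it in distal and 25.3% to 26.7% in proximal libraries. Krt19 alone went from 1.96% ± 0.322 to 6.78% ± 0.356 and Krt7 from 0.659% ± 0.158 to 3.06% ± 0.281, whereas Krt18 was at 12.6% ± 1.19 and 11.0% ± 0.503 and Krt8 at 5.48% ± 0.228 and 5.15% ± 0.588 in distal and proximal cells (SD, n = 3). The basal keratins Krt5, Krt14, Krt15 and Krt17 held 75.7% to 78.2% in distal and 70.0% to 71.6% in proximal libraries. The basal keratins thus held most of the keratin FPKM in all 6 libraries, with a simple keratin component beside them. Krt5 alone, however, lay below Krt8 in each distal library, at 437, 363 and 340 FPKM against 643, 474 and 522 FPKM. In the proximal replicates Krt5 was at 674, 598 and 583 FPKM against 615, 519 and 661 FPKM for Krt8, so it was lower in replicate 3 only.

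Type II genes supplied only 10.3% to 10.9% of keratin FPKM in distal and 14.0% to 15.8% in proximal libraries. Within the type II genes, Krt8 was the leading one in distal cells, with 52.1% ± 1.73 of their sum, ahead of Krt5 with 36.4% ± 2.26 (SD, n = 3). In proximal cells Krt5 with 35.8% ± 3.31 and Krt8 with 34.5% ± 1.92 could not be separated by their spread, and Krt7 supplied 20.5% ± 1.14 against 6.25% ± 1.30 in distal cells (SD, n = 3). Shares of a sum move together, so a larger share of Krt7 lowers that of Krt8 without a fall in the level of Krt8. Reads common to near-identical keratins, such as Krt14, Krt16 and Krt17, or to Krt8 and its annotated pseudogene, may have been divided between them, in a way the sources used here do not describe.

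**Figure D3:**
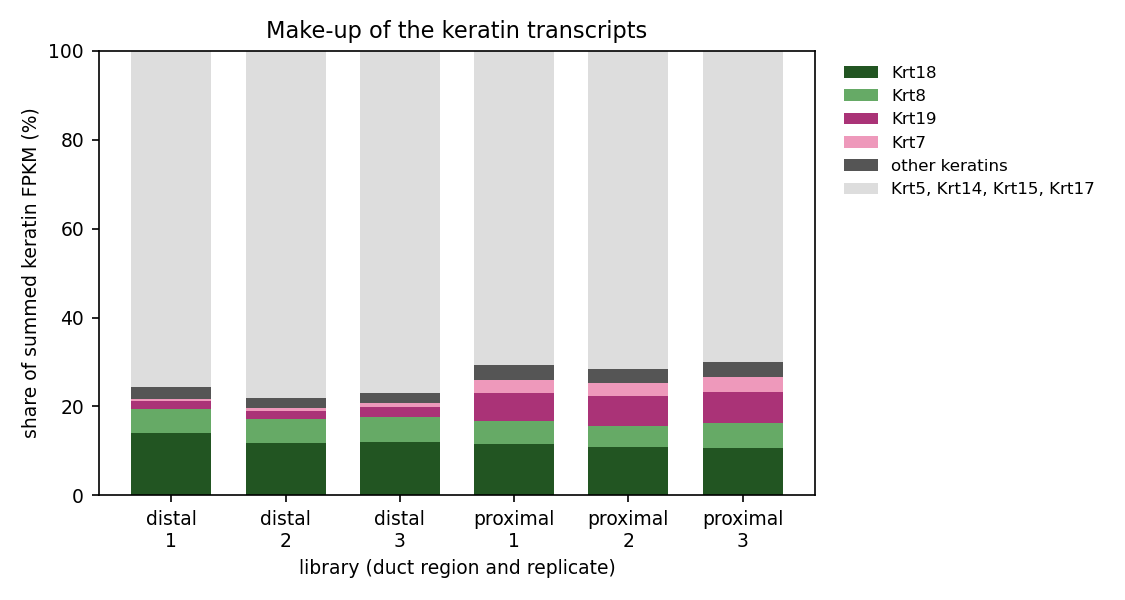
Share of the summed FPKM of 52 keratin genes (vertical axis, percent) in each library, stacked by gene. The Krt19 and Krt7 segments are larger in all 3 proximal libraries, and the basal keratins fill 70.0% to 78.2% of each bar.

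The other keratins place the members in their family. The basal keratin Krt5 was among those higher, with a log2 fold change of 0.71 (limma, adjusted p = 0.0204). That call was lost without distal replicate 2 or 3 or proximal replicate 2 or 3 (adjusted p up to 0.104). Krt15, described below with the neighbours of Krt19, was higher too. The basal keratins Krt14 and Krt17 went the other way, with log2 fold changes of -0.29 and -0.38. Neither passed (limma, adjusted p = 0.365 and 0.171). Of the 20 keratins that reached the filter of 1 FPKM on average, 8 were higher in proximal cells, 1 was lower and 11 did not pass. With the pseudocount of 1, Krt4 had a larger log2 fold change than Krt7 (2.94 against 2.45), and with a pseudocount of 10 a smaller one (1.29 against 2.30). Krt20 and Krt23 are the remaining simple-type keratins that were listed. Krt20, a keratin of gut and urothelial umbrella cells, was at 4.29, 2.86 and 3.80 FPKM in distal and at 1.56, 1.04 and 1.03 FPKM in proximal libraries. It was lower, with a difference of -1.07 on the log2 scale (limma, SE 0.17, adjusted p = 0.0114), and that call was lost without distal replicate 3 or proximal replicate 2 (adjusted p = 0.0517 and 0.0618). Krt23 had a proximal mean of 15.2 ± 1.31 FPKM and a distal mean of 19.5 ± 1.78 FPKM (SD, n = 3, limma, adjusted p = 0.120). Among the simple keratins, therefore, 2 rose, 1 fell and 3 did not pass.

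Of 8 tested keratins of stratified or stressed epithelia, 4 were higher and none was lower, with a median log2 fold change of 1.05. Krt13, the partner of Krt4 in mucosal epithelia, had a proximal mean of 34.7 ± 3.57 FPKM and a distal mean of 7.41 ± 0.308 FPKM (SD, n = 3). Its log2 fold change was 2.08 ± 0.11 (SE, limma, adjusted p = 9.49e-05), and 1.36 with a pseudocount of 10. Krt4 averaged 1.46 ± 0.236 FPKM distally and 18.2 ± 4.79 FPKM proximally (SD, n = 3), with a difference of 2.94 on the log2 scale (limma, SE 0.19, adjusted p = 0.000163). Krt6a and Krt6b, near-identical keratins of activated and stratified epithelium, had log2 fold changes of 1.86 and 1.55, and of 1.56 and 0.66 with a pseudocount of 10. All 4 levels remained below those of Krt19 and Krt7 in the same libraries. Krt6a came nearest, at 24.1, 22.6 and 26.1 FPKM in the distal replicates against 63.3, 53.9 and 77.1 FPKM for Krt7.

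**Figure D4:**
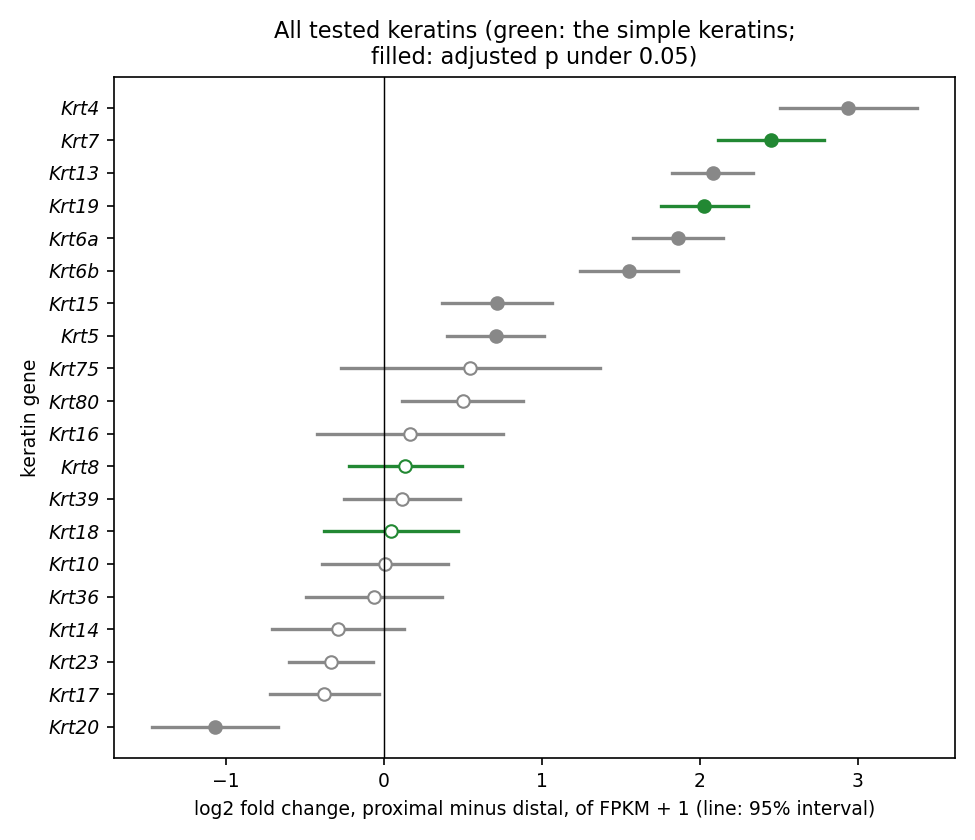
Log2 fold change (proximal minus distal, of FPKM + 1, horizontal axis) with its 95% interval for the 20 tested keratins (vertical axis), the members in green and filled points for an adjusted p under 0.05. Krt7 and Krt19 stand among the 6 keratins above 1.5, whereas the intervals of Krt8 and Krt18 cross 0.

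Of 26 genes other than members within 100 kb of a member, 10 were tested, of which 3 were higher, all of them keratins, and 7 did not pass. Among all tested genes 4.52% were higher, and among the 20 tested keratins 8 were. Most of the tested neighbours were themselves keratins, since the members lie in keratin clusters. The neighbours other than keratins, Eif4b, Tns2 and Spryd3, did not pass with all libraries. Beside Krt7, Krt80 was the only tested neighbour, with a proximal mean of 9.74 ± 1.63 FPKM and a distal mean of 6.62 ± 1.21 FPKM (SD, n = 3, limma, adjusted p = 0.116). Krt4, within the window of Krt8 but not of Krt18, was higher. Tns2, which encodes the focal adhesion protein tensin 2, lay within the windows of both Krt8 and Krt18. It had a difference of -0.71 on the log2 scale (limma, SE 0.23, adjusted p = 0.111) and passed as lower without distal replicate 1 (0.0358). Eif4b, beside both members, and Spryd3, beside Krt18 only, had log2 fold changes of 0.02 and -0.01. Beside Krt19, Krt13 and Krt15 were higher, Krt15 with a difference of 0.71 on the log2 scale (limma, SE 0.15, adjusted p = 0.0306), and Krt14, Krt16 and Krt36 did not pass. The call of Krt15 was lost in 5 of the 6 leave-one-out fits, with adjusted p-values up to 0.142, and held without distal replicate 1.

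By the correlation of log2(FPKM + 1) over the 6 libraries, the gene most like Krt7 was Krt19 (Pearson r = 0.999) among 6510 genes. These averaged at least 5 FPKM, and predicted genes, small RNAs, pseudogenes and genes within 100 kb of the member were left out, which removes Krt13 and Krt15 from the comparison with Krt19. The difference between the 2 regions sets most of such a correlation, since the libraries fall into 2 separate groups for these genes. Next came Sparcl1, which encodes a matricellular protein, and Lbp, which encodes the lipopolysaccharide binding protein, both with r over 0.99. Lbp was also the gene most like Krt19, ahead of Krt7. It was at 3.67, 3.42 and 4.05 FPKM in the distal and 12.3, 12.3 and 12.1 FPKM in the proximal replicates, a difference of 1.49 on the log2 scale (limma, SE 0.11, adjusted p = 0.000425). Sparcl1 had a difference of 1.01 on the log2 scale (limma, SE 0.11, adjusted p = 0.00265). Cdc42se2 and Pdcd6ip completed the genes most like Krt19, with far smaller log2 fold changes of 0.47 and 0.24 (limma, adjusted p = 0.0251 and 0.142). Pearson correlation does not depend on the size of a change, so a close pattern carries no information on that size.

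Krt8 and Krt18 resembled other genes. The genes most like Krt8 were Psma2, a proteasome subunit, Eif2s1, a translation initiation factor subunit, Ran, a nuclear transport GTPase, and Stk19, with r from 0.976 to 0.995. Those most like Krt18 were Pdcd2, Gspt1, a translation termination factor, Ddx18, an RNA helicase, and Med4, a Mediator subunit, with r from 0.988 to 0.997. None of these 8 genes passed the test between the regions, which was largely set by their choice for likeness to members that did not pass. Krt8 and Krt18 lie within 100 kb of each other, so each was left out of the other's comparison. Krt8 and Krt18 had an r of 0.709 with each other, and Krt7 had an r of 0.423 with Krt8 and 0.0885 with Krt18. These are descriptions over 6 libraries that share a group structure.

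Keratin filaments are tied to desmosomes, hemidesmosomes and the cytoskeleton by linker proteins. Of 23 tested linkers and regulators of keratins, 1 rose and 22 did not pass, with none lower and with a median log2 fold change of 0.12. The higher gene was Plec, which encodes the cytolinker plectin, with a proximal mean of 103 ± 17.7 FPKM and a distal mean of 56.5 ± 4.21 FPKM (SD, n = 3), a difference of 0.84 on the log2 scale (limma, SE 0.14, adjusted p = 0.0131). Plec no longer passed when distal replicate 2, proximal replicate 2 or proximal replicate 3 was removed (highest adjusted p = 0.0618). Dst, which encodes the hemidesmosomal linker dystonin, Dsp, which encodes desmoplakin, and Pkp3, which encodes plakophilin 3, had log2 fold changes of 0.45, 0.27 and 0.29 and did not pass (limma, adjusted p = 0.0832, 0.107 and 0.0972). Without distal replicate 1, Dst passed (limma, adjusted p = 0.0395).

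Of 19 tested transcription factors of epithelial cells, 1 was higher, 1 was lower and 17 did not pass, with a median log2 fold change of -0.16. Gata2, a zinc finger factor, had a proximal mean of 6.22 ± 0.602 FPKM and a distal mean of 2.42 ± 0.705 FPKM (SD, n = 3), a difference of 1.10 on the log2 scale (limma, SE 0.18, adjusted p = 0.0114). Grhl1, a grainyhead-like factor of epithelial barriers, was lower, with a difference of -0.57 on the log2 scale (limma, SE 0.11, adjusted p = 0.0269). The call of Gata2 was lost without proximal replicate 2 (adjusted p = 0.0618) and that of Grhl1 without distal replicate 2 or 3 or proximal replicate 2 or 3 (up to 0.131). Gata3 and Tfap2c had log2 fold changes of -0.51 and -0.54 and did not pass with all libraries (limma, adjusted p = 0.0625 and 0.0758), but both passed as lower without distal replicate 1 (0.0140 and 0.0107).

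Markers of other cells moved with Krt7 and Krt19 in part. In bulk samples such as these, more cells of a type and more RNA per cell cannot be told apart. Of 12 tested markers of proximal luminal cells, 8 were higher and none was lower, with a median log2 fold change of 1.66, and their summed level was 949 to 998 FPKM in distal and 1600 to 1872 FPKM in proximal libraries. Among secretory luminal markers 8 were tested, of which 2 rose, 2 fell and 4 did not pass, with a median log2 fold change of -0.04. The sums of the whole list of 13 overlapped, at 601 to 684 FPKM in distal and 672 to 758 FPKM in proximal libraries. Pbsn, which encodes the luminal secretory protein probasin, was at 263 to 366 FPKM in distal and 403 to 412 FPKM in proximal libraries (limma, adjusted p = 0.107). Of 9 tested general luminal markers other than keratins, Cldn3 was higher and 8 did not pass. Sums over the list were 3196 to 5001 FPKM in distal and 3121 to 4585 FPKM in proximal libraries. Cldn4 was the largest term of these sums in each library, at 1422 to 2882 FPKM in distal and 1111 to 2249 FPKM in proximal libraries. The sums thus say little about the other markers. The part of luminal cells carried through the sort in the levels of the members was not tested.

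Of 5 tested urothelial markers, 2 were higher, 1 was lower and 2 did not pass, with sums of 46.6 to 53.7 FPKM in distal and 41.9 to 60.1 FPKM in proximal libraries. The uroplakins, which define urothelium, differed among themselves. Upk1a was higher, at 2.03 to 5.77 FPKM in proximal and 0.399 to 0.980 FPKM in distal libraries (limma, adjusted p = 0.0398). Upk1b averaged 18.8 ± 4.87 FPKM proximally and 12.4 ± 0.653 FPKM distally (SD, n = 3) and did not pass (limma, adjusted p = 0.103). Upk3a was listed at 0 in every library, Upk2 reached at most 0.924 FPKM, and Upk3b was at 0.780 to 2.23 FPKM in distal and at most 0.0233 FPKM in proximal libraries. The other higher marker was Pparg, averaging 0.213 FPKM distally and 3.43 FPKM proximally (limma, adjusted p = 0.00125), and the lower one was Krt20. Gata3 was the largest term of the sums in 5 of the 6 libraries, and averaged 32.7 FPKM distally and 22.5 FPKM proximally. The part of urothelial cells in the levels of the members was not tested. Seminal vesicle transcripts differed within the proximal group, with a sum of 0.568 FPKM in proximal replicate 1 against 171 and 480 FPKM in proximal replicates 2 and 3. In the same order Krt7 was at 342, 333 and 391 FPKM and Krt19 at 759, 787 and 815 FPKM. The part of seminal vesicle RNA in the result was not tested. Endothelial markers were higher in proximal libraries for 4 of 5 genes, with sums of 2.01 to 10.2 FPKM in distal and 16.5 to 22.2 FPKM in proximal libraries, and their part in the result was not tested. The 5 neuroendocrine markers all lay below the filter, with sums of at most 2.13 FPKM.

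For fibroblast and smooth muscle markers, 2 of 7 were higher and none was lower, with sums of 778 to 823 FPKM in distal and 687 to 753 FPKM in proximal libraries. Dcn, which encodes the matrix proteoglycan decorin, made up most of these sums, at 737 to 789 FPKM in distal and 641 to 710 FPKM in proximal libraries, and did not pass (limma, adjusted p = 0.365). The higher genes were the collagens Col1a1, averaging 7.17 FPKM distally and 11.8 FPKM proximally, and Col1a2, averaging 6.18 and 9.53 FPKM, and their part in the result was not tested. Of 3 tested leukocyte markers none passed. Immediate early and heat shock genes, which respond to tissue dissociation, summed to 4986 FPKM in distal replicate 1 against 11667 and 12108 FPKM in distal replicates 2 and 3, and to 3819 to 5033 FPKM in proximal libraries. Of 10 tested, 2 were lower in proximal cells and 8 did not pass, with a median log2 fold change of -0.92. The log2 fold change was negative for each of the 10, and the part of this shift in the result was not tested. Krt8 and Krt18 were both highest among the distal libraries in replicate 1, where the sum of these genes was the lowest of the 3. Krt7 and Krt19 in that library lay between the other distal values. Without distal replicate 1 the log2 fold changes of Krt8 and Krt18 were 0.26 and 0.24 (limma, adjusted p = 0.273 and 0.240), and those of Krt7 and Krt19 were 2.44 and 2.05.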

How the data were processed

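RNA of sorted prostate basal cells was measured in 3 distal and 3 proximal libraries, grouped by their labels. Total RNA was converted to cDNA with random and oligo(dT) priming, per the labels' protocols. The tools named are bcl2fastq 1.8.3, TopHat and Cufflinks, with the build mm10, per the submitters' processing notes. The files deposited by the authors list FPKM with an interval for 63241 transcripts, and a coverage signal that the authors deposited beside it and no comparison here uses.

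Transcripts were matched to GENCODE M21 genes by span and spliced length (score of at least 0.5, next gene below 0.8 of it; 49609 transcripts), or by exons of 1 gene covering at least 0.8 of their length (3714, among them Krt7). Matched transcripts held 93.9% of FPKM and were summed per gene. Genes averaging at least 1 FPKM were compared by limma 3.58.1 in R 4.3.3 after a log2(FPKM + 1) transform ( variance trend, two-sided, Benjamini-Hochberg over all tested genes). The method was tested on simulated data. Depth was derived from interval widths of transcripts that overlap no other. It is an estimate, since FPKM holds no counts.

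The members, gene lists and tests were chosen with earlier results of these data known. Text names the members, Krt20, Krt23, the basal keratins, the 4 genes most correlated with each member, neighbours within 100 kb and up to 4 genes of each list. Single marker genes of other cell types, and library values beside them, were picked after their values were seen. Sox4 was not matched and Elf5 did not reach the filter.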

Additional observations from a re-analysis of the deposited data

How the results depend on the processing

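The calls of Krt7 and Krt19 held under every alternative run. These were pseudocounts of 0.1 and 10, no filter or a filter at 5 FPKM, median of ratios scaling, quantile normalization, no variance trend, the highest transcript only, a replicate block, leaving out each library, and leaving out both libraries numbered 1. With closely matched transcripts only, Krt7 and the contrast had no value, and Krt19 held. The log2 fold change ranged from 2.30 to 2.58 for Krt7 and from 1.94 to 2.13 for Krt19, with adjusted p-values up to 0.00182. Krt8 passed under none (0.04 to 0.26, adjusted p from 0.260 to 0.939). Krt18 passed under none (adjusted p from 0.187 to 0.980) and its sign was not stable, with -0.0624 to 0.236 on leaving out 1 library and the negative values without distal replicate 2 or 3 or proximal replicate 1. The contrast of the pairs ranged from 2.00 to 2.31.

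Counts over all genes were less stable, at 464 higher and 256 lower with all libraries. Without 1 library they ranged from 202 to 533 higher and from 46 to 622 lower. Leaving out distal replicate 2 gave 205 and 46, distal replicate 3 gave 241 and 62, proximal replicate 2 gave 202 and 53, and proximal replicate 3 gave 256 and 74. Lower genes numbered 622 on leaving out distal replicate 1 and 548 on leaving out proximal replicate 1. Without both libraries numbered 1 there were 908 and 1385. With a filter at 5 FPKM there were 273 and 168, and lower genes numbered 137 with no filter and 169 with the highest transcript only. Keratins called lower numbered 0 with a filter at 5 FPKM, where Krt20 was not tested, 0 to 1 on leaving out 1 library, and 2 with the replicate block. The cause of these shifts was not tested. Without any filter the calls of Krt5 and Krt15 ended (adjusted p = 0.0585 and 0.186), and with median of ratios scaling Gata3 passed (0.0480). The fold change of keratins of low level depended on the pseudocount, with Krt4 at 3.53, 2.94 and 1.29 and Krt13 at 2.21, 2.08 and 1.36 for pseudocounts of 0.1, 1 and 10, and both passed in each.

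Replicate numbers are shared by the groups, but the labels do not say that they pair libraries. Deviations from the group means correlated at 0.38, 0.04 and 0.29 for the 3 pairs, and distal replicate 2 correlated best with proximal replicate 3 (0.13). With the replicate block, 880 genes were higher and 732 lower, and the pairing changed no call among the members. Krt23, Krt80, Dst, Pkp3, Dsp, Gata3, Tfap2c and Tns2 passed only then or on leaving out libraries or rescaling. At 3 libraries a group, a change in Krt8 or Krt18 within the intervals given was not detectable.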
